A study of Mus musculus with 3 samples.

Results

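The aminoacyl-tRNA synthetases are described here in immune cells of the mouse colon. The 36 genes were taken by symbol from the 30905 genes of the deposited count tables, and comprised 20 cytosolic synthetases and 16 mitochondrial ones, whose symbols end in 2. Lars2, the mitochondrial leucyl-tRNA synthetase, was kept apart, so that the mitochondrial set held 15 genes. White blood cells (CD45+) of the colon had been sorted by flow cytometry, and their RNA was counted from its 3′ ends with the droplet method of 10x Genomics. The mice were C57BL/6. Library C was of healthy colon, and T1 and T3 were of colon bearing intraepithelial neoplasia, low-grade in T1 and high-grade in T3. The mice of T1 and T3 had received azoxymethane (AOM), a colon carcinogen, at 12 mg/kg, and 3 cycles of 2.5% dextran sodium sulfate (DSS), which injures the colon lining, for 7 days followed by water for 14 days. The labels call the mice male and give an age of 6 to 8 weeks when the model was set up, and they do not say how many mice entered a library. Each group was 1 library, which leaves every difference without a replicate check, and the carcinogen, the colitis and the neoplasia cannot be told apart in comparisons with C.

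Each synthetase joins an amino acid to its transfer RNAs, and so supplies the ribosome with its substrates. The cytosolic enzymes serve the translation of nuclear messages, and several of them sit together in the multisynthetase complex on the scaffold proteins Aimp1, Aimp2 and Eef1e1. The mitochondrial enzymes are also encoded in the nucleus, and charge the transfer RNAs used to translate the few proteins of the mitochondrial genome. Plasma cells, which secrete antibody, and germinal centre B cells, which divide rapidly, both make large amounts of protein. Gars and Kars encode the enzymes of both compartments, and Lars also senses leucine for the growth regulator mTORC1. The series title concerns leucine and B cells marked by a leucyl-tRNA synthetase.

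Many cytosolic synthetase genes are known targets of Atf4, a transcription factor of the amino acid response that binds C/EBP-ATF elements, and the letters TGATGNAA, shared by these elements, were looked for on both strands. RefSeq promoters of build GRCm38.p6, from 250 bases before to 50 bases after the start, were matched for 13 of the 20 cytosolic genes, 13 of the 15 mitochondrial genes and Lars2. Lars, Cars, Hars, Nars, Rars, Vars and Wars, and Hars2 and Pars2, had no match and were not searched. TGATGNAA occurred in 5 of the 13 cytosolic genes (38.5%) and in none of the 13 mitochondrial genes or Lars2. Of all 27025 genes with a promoter, 4.51% held it in any promoter. For each of the 5 genes 1 run is shown, because the motif separates members of the cytosolic set. Aars holds 2 matches, and the run of the other, at chr8:111033719-111033748, is not shown. Each run of 30 bases is written 5′ to 3′ on the strand that reads the motif, which is in capitals.
Aars: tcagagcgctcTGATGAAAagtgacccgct
Gars: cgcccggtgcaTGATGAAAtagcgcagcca
Iars: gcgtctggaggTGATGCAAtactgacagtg
Tars: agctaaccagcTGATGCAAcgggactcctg
Yars: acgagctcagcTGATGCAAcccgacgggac
The run of Aars lies at chr8:111033840-111033869. Those of Gars, Iars, Tars and Yars lie at chr6:55037960-55037989, chr13:49682126-49682155, chr15:11399655-11399684 and chr4:129189895-129189924. Tars is transcribed from the minus strand and the others from the plus strand, and the motif reads along the gene in Yars and against it in the others. CACGTG, an E-box, occurred in 8.09% of all genes with a promoter. It was in Aars, Farsb, Iars and Tars among the cytosolic genes (4 of 13) and in Ears2 among the mitochondrial genes (1 of 13). It reads the same on both strands and was found in 0 of the 5 runs of 30 bases above. A match describes the letters and is not a binding site.

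The libraries held 7903, 8566 and 5779 barcodes and 35489195, 37208603 and 15898397 unique molecular identifiers (UMIs, each counting 1 captured RNA molecule) in C, T1 and T3. After filters on detected genes and mitochondrial share, 6004, 6143 and 4543 barcodes remained. Barcodes were placed in 7 classes by marker genes, none of them a synthetase, which took 4278, 4666 and 2086 of them. Plasma cells numbered 77, 58 and 2, germinal centre B cells 184, 113 and 10, and other B cells 2938, 3161 and 1077. Among T cells, 379, 664 and 507 were placed by Cd4, 336, 309 and 383 by Cd8b1, 308, 104 and 43 by Trdc, and 56, 257 and 64 by Foxp3. Plasma and germinal centre cells of T3 were too few and enter no comparison. Barcode sequences shared between libraries numbered 39 for C and T1 and 35 for each other pair. Xist, which is transcribed from the inactive X chromosome of females, was at 1196 to 1361 CPM (counts scaled to 1e+06 UMIs), and 4 Y-linked genes together had 0, 1 and 1 UMI, against the male label of all 3 libraries. Classes of T3 carried RNA of other cells: the summed level of 4 haemoglobin genes in other B cells was 1563 CPM, against 2.83 in C and 3.66 in T1, and that of 3 neutrophil genes in Cd4 cells was 819.5 CPM, against 1.63 and 1.33. The part of these transcripts in the ratios of T3 was not tested, apart from leaving out haemoglobin-bearing barcodes in all classes.

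Levels are given as CPM of the UMIs summed over a class in a library, with 95% Poisson intervals in brackets that cover counting error only. In such sums, more RNA in each cell and more cells that express a gene cannot be told apart. A gene was called higher or lower where 2 sums differed at least 1.5-fold, held at least 50 UMIs together and had a 95% interval of the ratio that left out no difference. A called gene differs between these libraries or cells, since cells are not replicates, and no p-value was computed. Over all classes Lars2 held 38338 UMIs, ahead of Eprs, the enzyme for glutamate and proline, with 5474. Sars followed with 4591 UMIs and Vars with 4298, whereas Pars2 held 116 and was the lowest of the 36. The 15 mitochondrial genes together reached only between 57.0 and 184 CPM in the classes compared, against 544 to 1001 CPM for the 20 cytosolic genes.

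**Figure D1:**
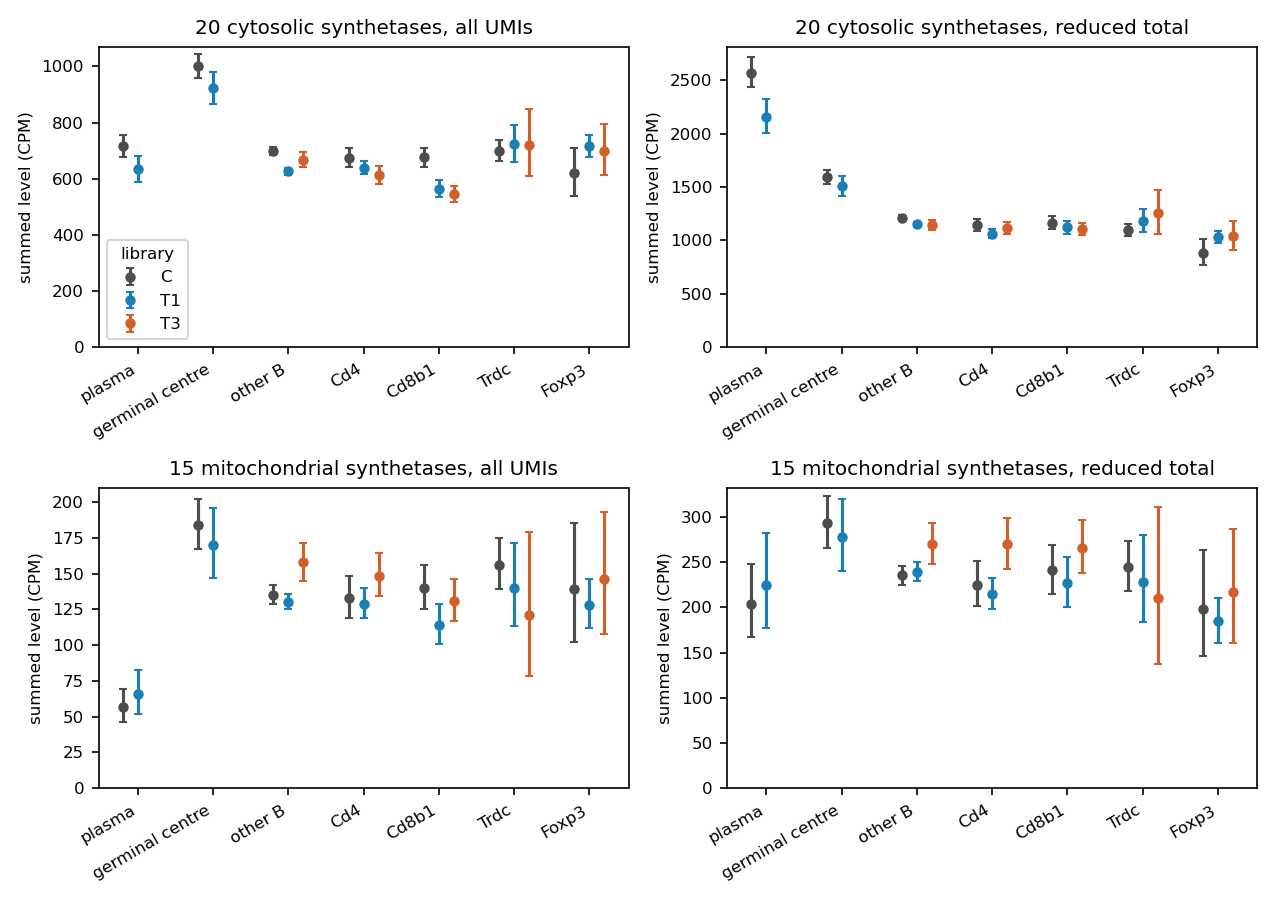
Summed level (CPM) of the 20 cytosolic (top) and 15 mitochondrial synthetases (bottom) by class and library, on all UMIs (left) and on the reduced total (right). Points are class sums and bars are 95% Poisson intervals of counting error. On all UMIs the germinal centre cells of C and T1 stood highest in the cytosolic set (1001 and 922 CPM), and on the reduced total the plasma cells did (2572 and 2158 CPM).

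Plasma cells were compared with other B cells to see how the sets stand in cells that secrete antibody. Immunoglobulin transcripts took 60.1% of plasma UMIs in C and 56.4% in T1, against 1.89% and 1.04% in other B cells, so the result depends on the total that levels are divided by. On all UMIs the cytosolic set was at 717 CPM [679, 757] in plasma cells and 698 CPM [684, 712] in other B cells of C, and at 633 CPM [587, 681] and 626 CPM [614, 639] in T1. These pairs lay within their counting error, with log2 ratios of 0.04 [-0.05, 0.12] and 0.02 [-0.10, 0.12]. The median ratio of all genes was far lower, at -1.21 in C and -1.11 in T1. A reduced total left out immunoglobulin, mitochondrially encoded, ribosomal protein, haemoglobin and ribosomal RNA-overlapping genes, and also Lars2. On this reduced total the all-gene median was -0.17 and -0.22. The cytosolic set then stood at 2572 CPM in plasma against 1215 CPM in other B cells of C, and at 2158 against 1152 CPM in T1. The log2 ratios were 1.08 [1.0, 1.17] and 0.91 [0.79, 1.02]. A plasma cell held on average 17.0 cytosolic synthetase UMIs in C and 12.4 in T1, and an other B cell 3.27 and 3.14, at median depths of 23822 and 20242 against 4565 and 4949 UMIs.

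Single cytosolic members differed in plasma cells. On all UMIs, 3 of 20 were called higher in both C and T1 (Mars, Nars and Yars), against 5.60% of all genes, and 1 of 20, Farsb, was called lower, against 50% of all genes. On the reduced total 11 of 20 were called higher in both libraries, against 15% of all genes, and again only Farsb lower, against 17.6%. The 11 were Lars, Gars, Hars, Iars, Kars, Mars, Nars, Rars, Sars, Tars and Yars. Yars, for tyrosine, was at 26.8 and 28.2 CPM in plasma cells of C and T1, and at 9.64 and 8.21 CPM in other B cells. Its plasma levels lay above those of other B cells in both libraries, with log2 ratios of 1.48 [0.97, 1.96] and 1.78 [1.17, 2.35] on all UMIs. Mars, for methionine, was at 56.4 and 31.7 CPM against 20.2 and 14.4 CPM, with ratios of 1.48 [1.14, 1.82] and 1.14 [0.59, 1.65]. Nars, for asparagine, was at 93.1 and 96.8 CPM against 51.5 and 46.6 CPM, with ratios of 0.85 [0.60, 1.10] and 1.05 [0.75, 1.35]. These 3 were called higher in both libraries whichever total was used, Nars being the most abundant of them.

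Farsb and Farsa encode the beta and alpha subunits of the phenylalanine enzyme, which works as a heterotetramer of both. Farsb was at 10.4 and 8.80 CPM in plasma cells and at 56.6 and 49.1 CPM in other B cells of C and T1. The log2 ratio was -2.44 [-3.18, -1.79] in C and -2.48 [-3.54, -1.59] in T1 on all UMIs, and -1.40 and -1.59 on the reduced total. Farsa was at 21.4 and 26.4 CPM against 36 and 34.8 CPM, with ratios of -0.75 [-1.26, -0.28] in C, where it was called lower, and -0.40 [-0.98, 0.13] in T1. On the reduced total Farsa was at 0.29 and 0.49 and was not called. The RNAs of the subunits thus stood differently in the same cells. Farsb overlaps Sgpp2 on the other strand, Mars overlaps Ddit3 and Yars overlaps C77080, and the counting is not stated to use strand, so reads of such pairs may not be told apart.

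Gars, for glycine, was at 50.4 CPM in plasma cells of C and 27.3 CPM in those of T1, against 21.8 and 20.7 CPM in other B cells. On all UMIs it was called in C, at 1.21 [0.86, 1.55], and not in T1, at 0.40 [-0.18, 0.93]. Tars, for threonine, was at 24.6 and 30.8 CPM against 16.5 and 15.6 CPM, with ratios of 0.58 and 0.98. Lars was at 29.6 and 36.1 CPM against 27.5 and 24.3 CPM, or 0.11 [-0.33, 0.52] and 0.57 [0.07, 1.04] on all UMIs and 1.15 and 1.46 on the reduced total. Eprs and Vars lay below other B cells on all UMIs, at -0.30 and -0.38 in C and -0.41 and -0.46 in T1, without being called. Among the promoters shown above, those holding TGATGNAA did not mark every gene called. Of the 5 cytosolic genes whose promoters hold TGATGNAA, 4 were called higher in both libraries on the reduced total (Gars, Iars, Tars and Yars), as were 3 of the 8 matched genes without it (Kars, Mars and Sars). On all UMIs it was 1 of 5 and 1 of 8. These numbers are small and were not tested.

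The mitochondrial set stood near the median gene in plasma cells. It was at 57.0 CPM [46.5, 69.0] in plasma against 135 CPM [129, 142] in other B cells of C, and at 66.0 CPM [51.9, 82.7] against 130.1 CPM [125, 136] in T1. The log2 ratios of -1.25 [-1.55, -0.96] and -0.98 [-1.33, -0.65] stood beside all-gene medians of -1.21 and -1.11. On the reduced total they were -0.20 [-0.50, 0.08] and -0.09 [-0.44, 0.24], within counting error of no difference. Hars2, Iars2, Mars2, Wars2 and Yars2 were called lower in both libraries on all UMIs, 5 of the 13 with enough UMIs in each, which is no more than the 50% of all genes called lower. None was called higher on all UMIs, where 5.60% of all genes were. On the reduced total none was called in either direction, where 15% of all genes were higher and 17.6% lower. The plasma sums rest on 104 mitochondrial synthetase UMIs in C and 75 in T1, and Pars2 had 0 UMIs in both.

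**Figure D2:**
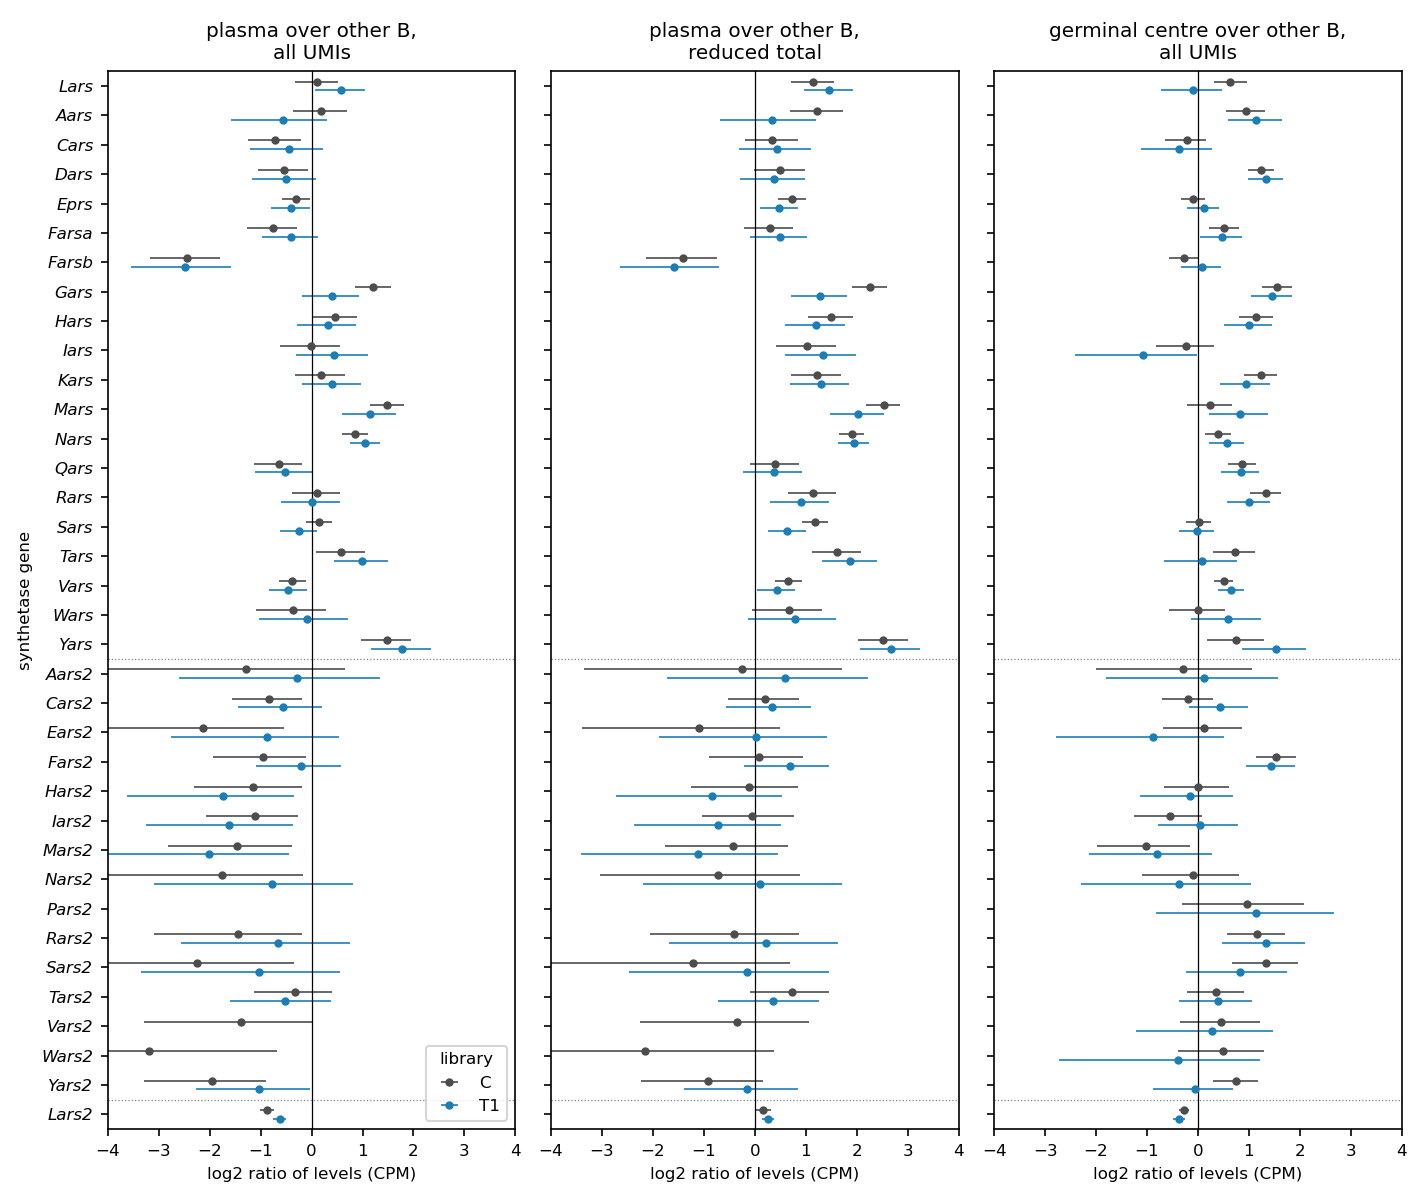
Log2 ratio of each synthetase's level between plasma and other B cells on all UMIs (left) and the reduced total (middle), and between germinal centre and other B cells on all UMIs (right), in C and T1. Points are ratios, bars are 95% intervals of counting error cut at the axis limits, dotted lines separate the cytosolic genes, the mitochondrial genes and Lars2, and a gene with 0 UMIs has no point. Yars, Mars and Nars lay right of 0 and Farsb left of 0 in both plasma panels, and Gars, Dars and Rars lay right of 0 in the germinal centre panel.

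Germinal centre B cells had the highest cytosolic sums on all UMIs of the classes compared within C and T1. Their median depths were 10972 and 8169 UMIs, against 4565 and 4949 in other B cells. The part of depth in the levels was not tested, apart from leaving out the deepest barcodes. The cytosolic set was at 1001 CPM [960.5, 1043] in germinal centre cells of C and 922 CPM [867, 979] in those of T1, against 698 and 626 CPM in other B cells. The log2 ratios of 0.52 [0.45, 0.59] and 0.56 [0.46, 0.65] lay above the all-gene medians of 0.16 and 0.27, and on the reduced total both were 0.39. In both libraries 8 of 20 cytosolic members were called higher (Aars, Dars, Gars, Hars, Kars, Qars, Rars and Yars), or 40% of them, against 24.4% of all genes. None was called lower in both, where 9.91% of all genes were. Gars was at 63.6 and 56.9 CPM in germinal centre cells of C and T1, with ratios of 1.55 [1.25, 1.84] and 1.46 [1.05, 1.85]. Dars, for aspartate, was at 73.7 and 72.7 CPM against 31.1 and 28.9 CPM, with ratios of 1.24 [0.98, 1.5] and 1.33 [0.98, 1.67]. Rars, for arginine, was at 57.9 and 49.1 CPM against 23.0 and 24.6 CPM, with ratios of 1.33 [1.03, 1.63] and 1.0 [0.57, 1.41]. Each of these 3 was about 2-fold or more above other B cells in both libraries. Among the 8, Aars overlaps Exosc6 on the same strand, and Hars overlaps Hars2 on the other, so that their reads may not be told apart.

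Other cytosolic members were not called higher in both libraries. Sars, for serine, was at 71.9 and 68.3 CPM in germinal centre cells and 70.9 and 69.1 CPM in other B cells, with ratios of 0.02 [-0.23, 0.26] and -0.02 [-0.37, 0.32]. Eprs was at 76.7 and 80.6 CPM against 82.5 and 74.8 CPM, and Farsb at 46.9 and 51.7 CPM against 56.6 and 49.1 CPM. Vars, for valine, was the most abundant cytosolic member there, at 135 and 124 CPM against 94.8 and 78.6 CPM, with ratios of 0.51 [0.32, 0.69] and 0.65 [0.39, 0.90], and was called in T1 alone. Iars, for isoleucine, was at 13.6 and 6.13 CPM against 16.0 and 13.0 CPM, and was called lower in T1 at -1.08 [-2.42, -0.02]. Lars was at 43.0 CPM in C against 27.5 CPM and was called there, at 0.64 [0.31, 0.97], but was at 22.8 CPM in T1 against 24.3 CPM, or -0.09 [-0.73, 0.48]. C and T1 thus gave Lars no common direction in germinal centre cells.

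The mitochondrial set was also higher in germinal centre cells, at 184 CPM [167, 202] in C and 170 CPM [147, 196] in T1, against 135 and 130.1 CPM in other B cells. The log2 ratios were 0.44 [0.28, 0.59] and 0.39 [0.17, 0.60], and 0.32 and 0.21 [-0.01, 0.43] on the reduced total. The median member ratio was 0.36 in C, above the 0.16 of all genes, and 0.12 in T1, below their 0.27. Fars2, for phenylalanine, was at 36.8 and 38.5 CPM against 12.7 and 14.2 CPM, with ratios of 1.54 [1.14, 1.92] and 1.44 [0.94, 1.91]. Rars2, for arginine, was at 16.7 and 14.0 CPM against 7.47 and 5.56 CPM, with ratios of 1.16 and 1.34. These were the 2 of the 13 mitochondrial members with enough UMIs that were called higher in both libraries, a share below the 24.4% of all genes. Fars2 spans a long locus that Lyrm4 and Nrn1 overlap on the other strand.

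Genes around the synthetases were read from lists. Of the 11 multisynthetase complex genes, 6 were called higher in germinal centre cells of both libraries (Qars, Kars, Rars, Dars, Aimp1 and Aimp2), beside 24.4% of all genes. In plasma cells on all UMIs 1, Mars, was called higher, beside 5.60% of all genes, and 2, Aimp1 and Eef1e1, lower, beside 50%. On the reduced total 6 were higher and 0 lower, beside 15% and 17.6% of all genes. Of these 6, only Aimp2 is not a cytosolic member already counted above. Aimp2 was at 35.5 and 31.5 CPM in germinal centre cells of C and T1 against 12.8 and 12.4 CPM in other B cells. Of the 78 mitochondrial ribosomal protein genes, 77 could be called and 59 were higher in germinal centre cells in both libraries, beside the same 24.4%, with medians of 1.06 and 1.0. Mrpl27 was at 71.0 and 59.6 CPM there against 12.5 and 10.2 CPM. In plasma cells of both libraries 7 of the 77 were called higher and 21 lower on all UMIs, beside 5.60% and 50% of all genes. On the reduced total 28 were higher and 1 lower, beside 15% and 17.6%. Of the mitochondrial translation factors, 3 of the 7 with enough UMIs were called higher in germinal centre cells of both libraries, beside 24.4% of all genes. These were Tufm, Tsfm and Gfm1, with Tsfm at 2.07 and 2.16 and Tufm at 0.97 and 1.71. All 10 proliferation genes were higher in germinal centre cells in both libraries, beside 24.4% of all genes. In plasma cells 9 had enough UMIs. On all UMIs 3 of these (Mki67, Tyms and Rrm2) were higher and 1, Pcna, lower, beside 5.60% and 50% of all genes. On the reduced total 5 were higher and 0 lower, beside 15% and 17.6%.

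In plasma cells, 11 of 12 genes of the unfolded protein response, which expands the folding capacity of the secretory pathway, were called higher in both libraries on all UMIs, beside 5.60% of all genes, Xbp1 among them being a gene used to define the class. Creld2 was at 267 and 235 CPM in plasma cells of C and T1 against 17.4 and 12.8 CPM in other B cells. Of the amino acid response genes, 7 of the 15 with enough UMIs were called higher in both (Asns, Phgdh, Psph, Shmt2, Slc7a5, Aldh18a1 and Pck2) and 3 lower (Atf4, Cebpb and Ddit4), beside 5.60% and 50% of all genes. With the reduced total, 10 were higher and 2 (Cebpb and Ddit4) lower, beside 15% and 17.6% of all genes. Asns, which makes asparagine, was at 62.4 and 35.2 CPM against 1.38 and 1.14 CPM, the same cells in which Nars was high. In germinal centre cells 8 of these genes were higher in both libraries and 4 lower, beside 24.4% and 9.91% of all genes, with Atf4 among the lower, and Asns was at 18 and 33.3 CPM. Of 6 cytosolic elongation factors, 5 were called lower in plasma cells of both libraries on all UMIs, beside 50% of all genes. The medians of this list, -1.42 and -1.26, were close to those of all genes. On the reduced total 1 was lower and Eif5a higher, beside 17.6% and 15% of all genes. Of further aminoacylation genes, 7 of 10 had enough UMIs and 4 were called lower in plasma cells of both libraries, and of the mitochondrial translation factors 5 of 7 were, with none higher in either list and 50% of all genes lower. None of either list was lower on the reduced total, and Tsfm was higher, beside 17.6% and 15% of all genes.

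Among T cells the synthetases differed little between classes. In C the cytosolic set was at 675 CPM in Cd4, 676 in Cd8b1, 699 in Trdc and 619 in Foxp3 cells. In T1 it was at 639, 563, 722 and 716 CPM, and in T3 at 613, 544, 721 and 699 CPM. The order of the classes changed from library to library, with Foxp3 cells lowest in C and Cd8b1 cells lowest in T1 and T3. Of the members that could be called in all 3 libraries, none was, in either direction, in Cd8b1, Trdc or Foxp3 cells over Cd4 cells. Those with enough UMIs were 19, 14 and 14 of the 20 cytosolic and 6, 2 and 1 of the 15 mitochondrial members, and Lars2. All genes gave few such calls: 0.938% higher and 3.12% lower for Cd8b1, 0.972% and 1.15% for Trdc, and 4.92% and 0.941% for Foxp3. The mitochondrial set lay between 114 and 156 CPM in these 12 sums, with overlapping intervals between classes of each library.

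Single members still differed between T classes in some libraries. Eprs was at 101, 116 and 135 CPM in Cd4 cells of C, T1 and T3 and at 88.0, 71.5 and 84.4 CPM in Cd8b1 cells, with log2 ratios of -0.70 [-0.95, -0.44] in T1 and -0.68 [-0.94, -0.43] in T3. Eprs was the 1 cytosolic member called lower in T1 and in T3 on all UMIs, beside 21.4% and 11.2% of all genes. On the reduced total it was called in neither. In Foxp3 cells it was at 91.8, 172 and 223 CPM, the highest level of any member without Lars2 in any class compared. Rars was higher in Trdc than in Cd4 cells of C, at 33.9 against 22.4 CPM, and of T1, at 56.1 against 24.3 CPM, but was at 19.4 and 22.8 CPM in T3, where 43 Trdc cells gave 4 UMIs. Vars was at 55.5 against 36.2 CPM in C, 45.5 against 29.2 CPM in T1 and 29.0 against 27.9 CPM in T3. On all UMIs Rars and Vars were both called higher in C and in T1, where 12.6% and 7.97% of all genes were. On the reduced total neither was called in C, and of these genes only Rars was called in T1. Some members marked lineage more than class: Vars was at 94.8, 78.6 and 97.5 CPM in other B cells of C, T1 and T3 and at 27.9 to 55.5 CPM in the T classes, and Farsb was at 56.6, 49.1 and 51.1 CPM in other B cells and at 14.9 to 32.6 CPM in the T classes. Levels between B and T classes are given as a description.

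The libraries were then compared within each class to ask whether the synthetases differ in neoplastic colon. In other B cells the cytosolic set was at 698, 626 and 667 CPM in C, T1 and T3, with intervals of [684, 712], [614, 639] and [640.4, 695]. The log2 ratio to C was -0.16 [-0.20, -0.12] in T1, beside an all-gene median of -0.09, and -0.06 [-0.13, 0.00] in T3, beside 0.09. No synthetase of either set was called in T1 over C, where 1.69% of all genes were called higher and 5.17% lower. In T3 over C, Cars, for cysteine, was called lower (1 of 20 cytosolic members), against 5.84% of all genes, and Iars2 and Mars2 higher (2 of 13 mitochondrial members with enough UMIs), against 14.7% of all genes. Cars was at 31.3, 22.8 and 16.5 CPM in C, T1 and T3, with ratios to C of -0.46 [-0.66, -0.25] and -0.92 [-1.34, -0.52]. Iars2 was at 14.1, 13.5 and 21.8 CPM, and Mars2 at 10.6, 10.7 and 17.1 CPM, with T3 over C at 0.62 [0.22, 1.01] and 0.69 [0.23, 1.14]. T1 lay close to C for both mitochondrial genes. The comparisons of T1 and T3 share the library C.

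The mitochondrial set in other B cells was at 135, 130.1 and 158 CPM in C, T1 and T3, with intervals of [129, 142], [125, 136] and [145, 171]. The log2 ratio to C was -0.06 [-0.15, 0.03] in T1 and 0.22 [0.08, 0.36] in T3, where the median of its members was 0.08, close to the 0.09 of all genes. Few members therefore carried the summed difference. Haemoglobin made up at least 0.1% of UMIs in 309 of the 1077 other B cells of T3, and without them the ratio of the mitochondrial set was 0.17 and that of the cytosolic set -0.05.

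**Figure D3:**
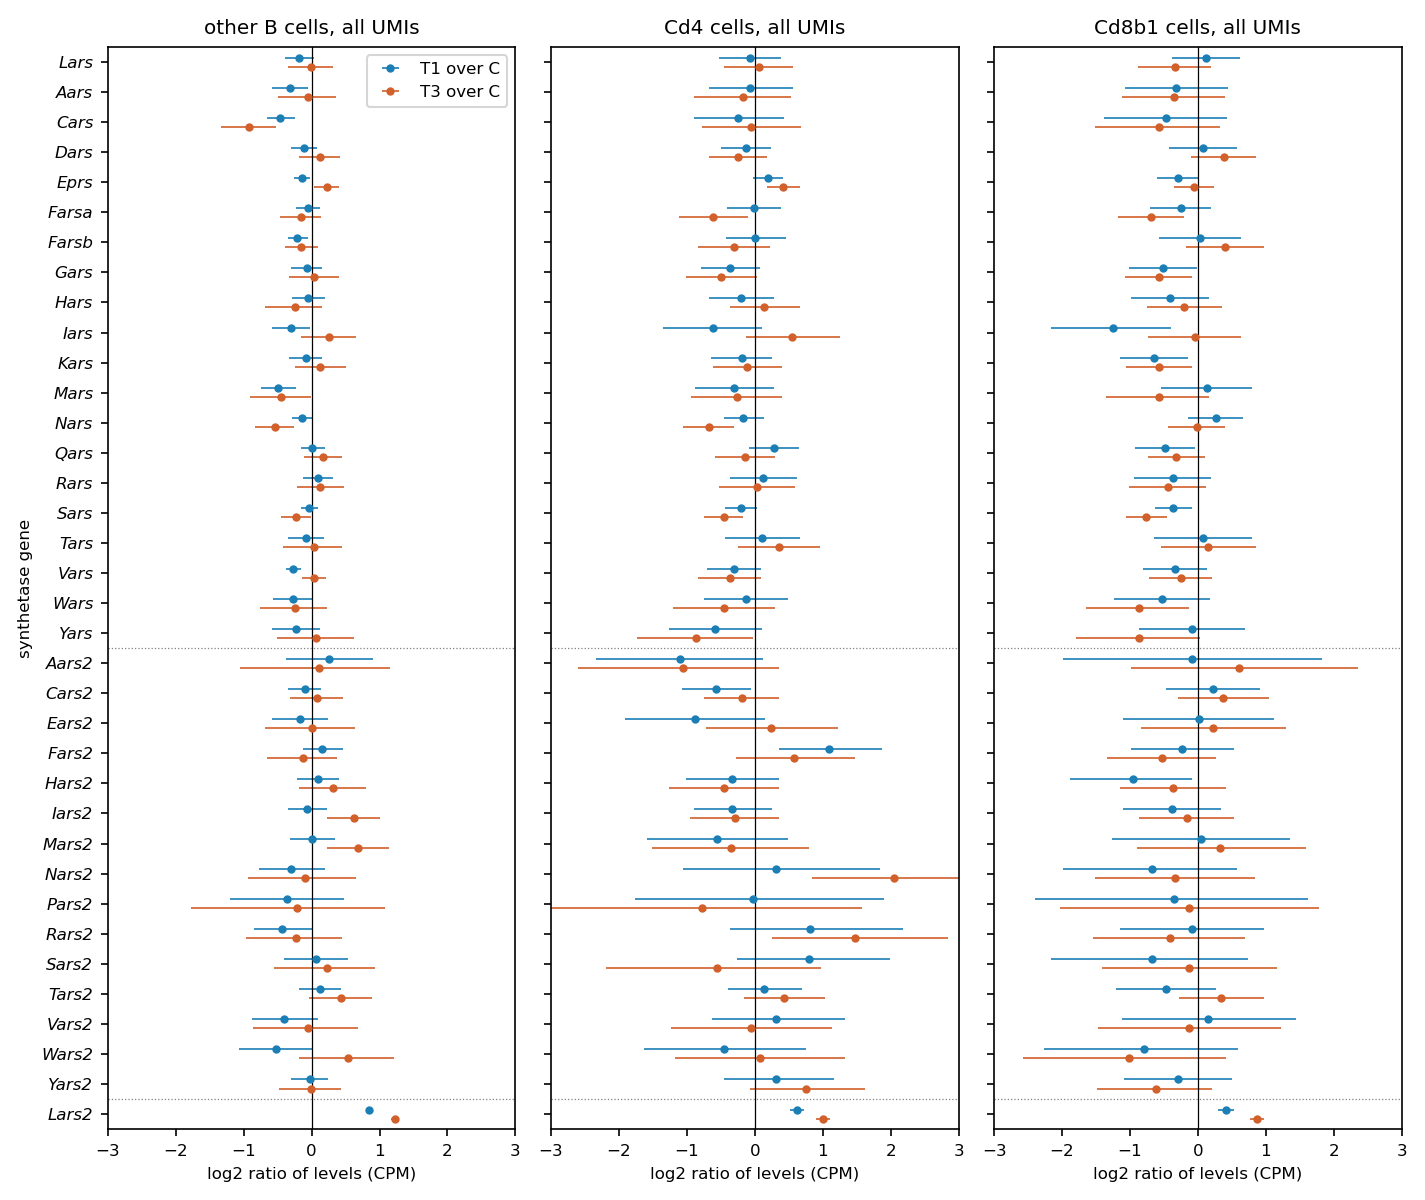
Log2 ratio of each synthetase's level in T1 and T3 over C in other B (left), Cd4 (middle) and Cd8b1 cells (right), on all UMIs. Points are ratios, bars are 95% intervals of counting error cut at the axis limits, and dotted lines separate the cytosolic genes, the mitochondrial genes and Lars2. Most members lay near 0 in other B cells, with Cars at -0.92 in T3, whereas Lars2 lay at 0.84 and 1.23.

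In Cd4 cells the cytosolic set was at 675, 639 and 613 CPM in C, T1 and T3, with ratios to C of -0.08 [-0.17, 0.01] and -0.14 [-0.24, -0.04]. In T1 over C, 1 member apart from Lars2 was called, Fars2, which was at 8.13 CPM in C on 20 UMIs and at 17.2 CPM in T1, beside 4.82% of all genes higher and 2.98% lower. In T3 over C, Farsa, Nars and Yars were called lower (3 of 20 cytosolic members), against 13.4% of all genes. No member apart from Lars2 was called higher, against 11.2%. All 20 cytosolic members but only 6 of the 15 mitochondrial ones had enough UMIs in both comparisons with C. Nars was at 62.6, 55.7 and 39.3 CPM, or -0.67 [-1.05, -0.30] in T3, and Yars at 14.2, 9.51 and 7.87 CPM. In Cd8b1 cells the cytosolic set was at 676, 563 and 544 CPM, with ratios of -0.26 [-0.37, -0.16] and -0.31 [-0.42, -0.20]. The all-gene medians were -0.25 and -0.13 there, and ribosomal protein genes took 35.8, 43.2 and 43.5% of UMIs. On the reduced total the ratios were -0.05 [-0.16, 0.05] and -0.07 [-0.18, 0.03]. Iars, Kars and Hars2 were called lower in T1, beside 13.6% of all genes, and Farsa, Sars and Wars in T3, beside 18.5%. Apart from Lars2 in T3 none was called higher, beside 2.01% and 9.28%. Members with enough UMIs in both comparisons of Cd8b1 cells with C were 18 cytosolic and 6 mitochondrial ones. Sars was at 108, 84.1 and 63.6 CPM in C, T1 and T3. These calls depend on the total: on the reduced total Farsa, Sars and Wars were not called in T3 over C, where Dars and Farsb were called higher, and of the 3 calls in T1 only Iars was left. In Cd4 cells of T3 none of the 3 lower calls was made on the reduced total, and Yars2 was called higher. The member counts in these T cells are near or below the shares of all genes.

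In Foxp3 cells the cytosolic set was at 619, 716 and 699 CPM in C, T1 and T3, with intervals of [538, 708], [676, 757] and [612, 794]. The ratios to C, 0.21 [-0.00, 0.43] and 0.18 [-0.10, 0.45], did not leave out no difference. Eprs was called higher in T1, at 0.90 [0.37, 1.49], and in T3, at 1.28 [0.66, 1.93], from 31 UMIs in C, 288 in T1 and 75 in T3. In plasma cells Gars was lower in T1 than in C, at -0.89 [-1.52, -0.28], as was Mars, at -0.83 [-1.42, -0.27], from 31 and 36 UMIs in T1. These were 2 of the 16 cytosolic members with enough UMIs, beside 4.64% of all genes called lower. The cytosolic sums of Trdc cells were at 699, 722 and 721 CPM, within counting error of each other.

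Lars, the cytosolic leucine enzyme, was not called in other B cells of T1 or T3 over C. Its levels in other B cells of C, T1 and T3 were 27.5, 24.3 and 27.3 CPM, from 379, 385 and 94 UMIs. The log2 ratios to C were -0.18 [-0.39, 0.03] and -0.01 [-0.35, 0.32], so a 1.5-fold difference (0.58) lies outside both intervals. In germinal centre cells Lars was called lower in T1 than in C, at -0.92 [-1.60, -0.28], from 26 and 98 UMIs. Across T classes it stood between 22.6 and 38.5 CPM, apart from Foxp3 cells of T3, at 56.5 CPM from 19 UMIs. After each cell was thinned to 1000 UMIs, 2.81% [2.23, 3.49], 2.12% [1.63, 2.70] and 2.72% [1.75, 4.03] of other B cells in C, T1 and T3 had a Lars UMI, against 11.3, 10.9 and 7.89% without thinning. In Cd4 cells the thinned shares were 3.44, 2.42 and 2.66%. In Cd8b1 cells they were 0.896, 2.27 and 2.68%. The intervals of other B and Cd4 cells overlapped in each library, and free RNA was not separated from these shares.

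Other B cells in which Lars was found at 1000 UMIs held the other 19 cytosolic synthetases at 659 [492, 864], 751 [554, 995] and 626 [350.2, 1032] CPM in C, T1 and T3. The cells without a Lars UMI held them at 643 CPM [613, 674], 585 CPM [558, 614] and 641 CPM [588, 697]. The intervals overlapped in each library, with 79, 64 and 24 cells that had Lars. The genes whose level was most like that of Lars over the 19 class sums, as log2(CPM + 1), were Tmem258 (r = 0.55), Edf1 (0.54), Sec61g (0.49), Ndufb9 (0.45) and Odc1 (0.43), of 972 genes with at least 20 UMIs in each sum. These sums share libraries and depth, and the correlations are a description.

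Lars2, at chr9:123366927-123462666 of GRCm38 on the plus strand, was kept apart because of its level. In other B cells of C, T1 and T3 it was at 437 [426, 448], 782 [768, 796] and 1025 [992, 1059.7] CPM, which is 3.23, 6.01 and 6.51 times the sum of the other 15 mitochondrial genes. T1 and T3 lay above C, with log2 ratios of 0.84 [0.80, 0.88] and 1.23 [1.17, 1.29]. The same order of the libraries held in Cd4 cells, at 432, 662 and 865 CPM, and in Cd8b1 cells, at 468, 625 and 855 CPM. Trdc cells held 438, 822 and 924 CPM and Foxp3 cells 329, 570.4 and 636 CPM, and in both of these T3 and T1 differed by less than counting error. Plasma cells of C and T1 held 238 and 505 CPM, and germinal centre cells 361 and 607 CPM. In germinal centre over other B cells the ratio of Lars2 was -0.27 [-0.38, -0.17] in C and -0.37 [-0.48, -0.25] in T1, short of a call, where those of the 15 other genes together were 0.44 and 0.39.

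The transcript most like Lars2 over the 19 class sums was Gm42418 (r = 0.87, Spearman 0.80), which is annotated over ribosomal RNA sequence, followed by AY036118 (0.86), another such transcript, Gm47283 (0.77), Pde4b (0.74) and Brd2 (0.73). Gm42418 was at 10158, 18213 and 15139 CPM in other B cells of C, T1 and T3. Lars2 stood at 4.04 to 6.33 UMIs per 100 Gm42418 UMIs in the classes of C and T1 and at 5.56 to 7.58 in those of T3. Across single other B cells Pearson's r of the 2 levels was 0.72, 0.82 and 0.77 in C, T1 and T3, and Spearman's rho 0.33, 0.51 and 0.54, over 2938, 3161 and 1077 cells that share depth and library. No stretch of the 9 annotated Lars2 transcripts matched the 8 ribosomal RNA or overlapping transcripts searched with blastn at an e-value of 0.001 or lower. The longest match at an e-value of 1 or lower was 27 bases. The search held annotated transcripts and not the full ribosomal RNA precursor, so sequence shared outside them was not tested.

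Lars2 was also higher in other B cells with over 10% of mitochondrially encoded UMIs. Across single other B cells that passed the filter, Pearson's r of Lars2 with this share was 0.17, 0.14 and 0.07 in C, T1 and T3. Spearman's rho was 0.07, 0.10 and -0.02. In other B cells of C, Lars2 was at 381, 409.8, 1085 and 2634 CPM in cells with up to 5%, 5 to 10%, 10 to 20% and over 20% of such UMIs. The filter on cells leaves out the last of these bins elsewhere in the results. In T1 it was at 710.4, 728, 1364 and 1701 CPM, and in T3 at 1092, 874, 1812 and 2021 CPM. In T3 the order was therefore not even from bin to bin. The 15 other mitochondrial genes were also higher in cells of a larger share, at 126, 137, 159 and 209 CPM in C, with 121 and 170.1 CPM in the lowest and highest bins of T1 and 135 and 228 CPM in those of T3. The cytosolic set lay between 598 and 776 CPM in the same cells. Among cells of up to 5% the libraries kept their order, at 381, 710.4 and 1092 CPM. Gm42418 rose over the same cells of C from 9255 to 36568 CPM. What part ribosomal RNA-overlapping transcripts or damaged cells have in the level of Lars2 was not tested.

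**Figure D4:**
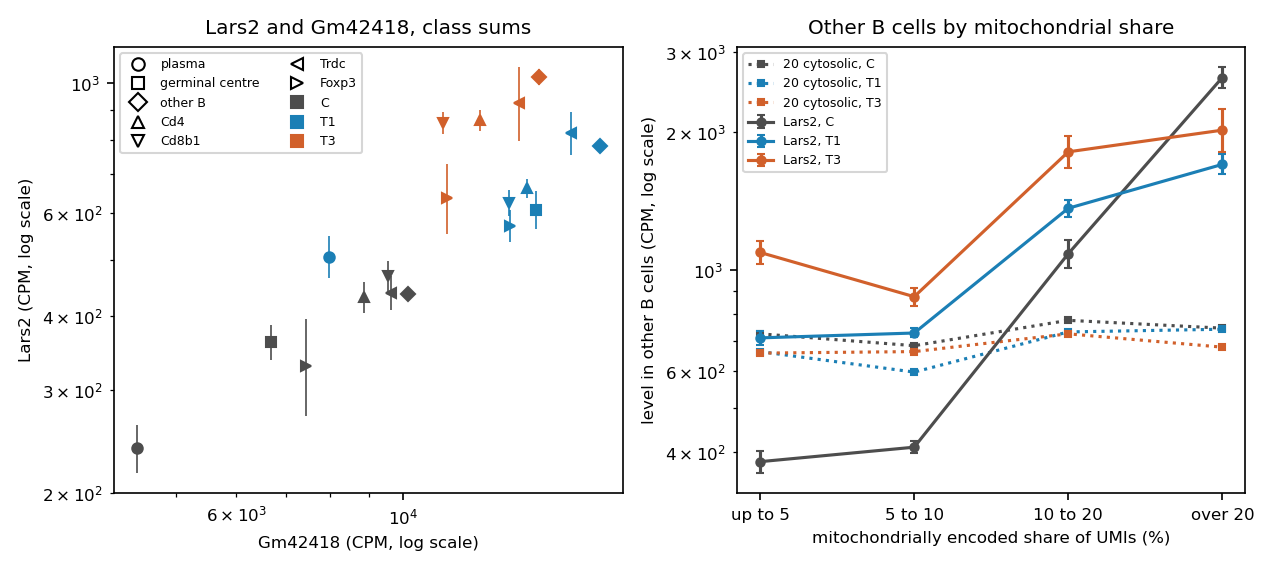
Left, Lars2 against Gm42418 in the 19 class sums (CPM, log scales), with symbols for classes, colours for libraries and 95% Poisson intervals for Lars2. Right, Lars2 (solid lines, with intervals) and the 20 cytosolic synthetases (dotted lines) in other B cells by their mitochondrially encoded share of UMIs (CPM, log scale), in which Lars2 of C rose from 381 to 2634 CPM and the cytosolic set lay between 598 and 776 CPM.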

How the data were processed

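RNA of CD45+ cells sorted from mouse colon was counted in 3 libraries, 1 per group. The deposited values are UMI counts, whole numbers for each gene in each barcode, which the authors made with CASAVA 1.8, Cell Ranger 3.1.0 and Seurat 3.1.4 on GRCm38, per the submitters' processing notes, which give no role to each tool. The gene annotation and whether counting used strand are not stated in the labels or file headers. Since 3′ counting gives 1 tag per molecule, levels of different genes were compared without scaling for length.

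Barcodes with at least 200 genes and at most 20% mitochondrially encoded UMIs were kept, and placed by UMIs of marker genes. B cells needed at least 2 UMIs of B genes and 3 times those of T genes, and T cells the reverse. Plasma cells needed 3 of 6 plasma genes and at least 0.5% Jchain, germinal centre cells 2 of 7 genes, and T cells were divided by Cd4, Cd8b1, Trdc and Foxp3. No doublet caller was run, so doublets within a class remain, and free RNA was not removed. Counts were summed per class and library and divided by all UMIs, or by a reduced total without 498 genes, of which 393 were immunoglobulin and 84 ribosomal protein genes. Lars2 was among the 498, so its ratios on the reduced total are to a total without it. Ratios carry exact conditional binomial intervals, shares Clopper-Pearson intervals, all at 95% and for counting error only. Calls needed a 1.5-fold difference, 50 UMIs and an interval without 0, medians 20 UMIs, and classes at least 20 cells. The calling was tested on simulated counts that held counting error only. Variation between cells or libraries was not simulated, so its effect on the calls was not tested. All 36 members could be named, and of each other list at most 5 called genes with the largest ratio per comparison, with further names where a count is spelled out, chosen after their values were seen. The members and lists were chosen with earlier results of these data known. Overlapping genes and coordinates came from the GRCm38 annotation. Python 3.11.15, numpy 2.4.6, scipy 1.17.1, pandas 2.3.3, matplotlib 3.10.9 and blastn 2.17.0 were used. Alternatives were the reduced total, means over cells, stricter gates, no mitochondrial filter, leaving out deep or haemoglobin-bearing barcodes, and other call limits. Some items are not reported here.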

Additional observations from a re-analysis of the deposited data

How the results depend on the processing

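No paired analysis was possible because each group was 1 library, and no library could be left out. On the reduced total, cytosolic plasma over other B ratios (log2) were 1.08 in C and 0.91 in T1, and mitochondrial ones -0.20 and -0.09, since that total leaves out the immunoglobulin UMIs of plasma cells. Germinal centre cytosolic ratios were 0.39 in both. Lars2 in plasma over other B cells turned to 0.17 and 0.26. The cytosolic ratio was -0.08 for T1 over C in other B cells and -0.04 for T3 over C in Cd4 cells, and Lars2 in T1 over C in other B cells was 0.92. As means over cells, the plasma ratios in C were 0.18 (cytosolic) and -0.86 (mitochondrial), the germinal centre cytosolic ratio in C 0.42, Lars2 in plasma of T1 0.30, and Lars2 in T3 over C in other B cells 1.40. Without the deepest barcodes the germinal centre cytosolic ratio in C was 0.45. Without the mitochondrial filter Lars2 in other B cells was 0.67 for T1 and 1.04 for T3 over C, and 1.05 for T3 without haemoglobin-bearing barcodes. Cytosolic members called higher in plasma cells numbered 11 and mitochondrial ones lower 0 on the reduced total, and cytosolic ones higher in germinal centre cells 3 at 2-fold. At 2-fold, members called, Lars2 left out here and below, were 0 for T3 over C in other B, Cd4 and Cd8b1 cells and 1 for T1 over C in Cd8b1 cells. With at least 100 UMIs they were 0 for T1 over C in Cd4 and 1 in Cd8b1 cells, and with at least 20 UMIs 5 for T3 over C in Cd4 cells. On the reduced total they were 2 and 1 for T1 and T3 over C in Cd4 cells, and 1 and 2 in Cd8b1 cells, and for T3 in both classes these were higher calls in place of 3 lower ones. The cause was not tested. Of 20 summed ratios (both sets in plasma and germinal centre over other B cells, and with Lars2 in T1 and T3 over C in other B and Cd4 cells), 19 kept their sign on the reduced total, 18 with stricter gates and 20 under each other choice of barcodes or of means over cells. Of 70 further ratios (T classes over Cd4 cells, other pairs of libraries or classes, and Lars2 in plasma and germinal centre cells), 54 kept it on the reduced total, 64 with stricter gates, 61 as means over cells, 63 without the deepest barcodes, 68 without the mitochondrial filter and 67 without haemoglobin-bearing barcodes. Counting error limits the mitochondrial members most, with 75 to 104 UMIs in plasma cells.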
